A study of Mus musculus with 12 samples.

Results

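The genes described here encode the proteins of the mitochondrial ribosome. They were taken by symbol, as every gene named Mrpl or Mrps followed by a number that had at least 1 listed m6A peak in colon, and there were 58 of them among the 11548 genes with a peak in any of 6 peak lists. Of the 58 genes, 37 carry a large subunit name (Mrpl) and 21 a small subunit name (Mrps). The series compared 3 colon samples of mice given TNBS (2,4,6-trinitrobenzenesulfonic acid, a hapten that provokes colitis), labelled TNBS-induced IBD, with 3 colon samples of normal mice. The treatment label of the normal mice was normal feeding. TNBS was given as a 5% w/v solution through the anus into the colon. The animals of both groups were labelled wild type (WT) male C57BL/6J mice of 6 to 8 weeks and 20 to 22 g. Each sample gave an RNA library pulled down with an antibody against N6-methyladenosine (m6A), a methyl mark on mRNA, and an input library, and each pair of libraries gave 1 peak list. A chemical colitis of this kind stands in for human bowel disease only as a model, and whole colon mixes epithelial, muscle, stromal and immune cells. In such bulk tissue, fewer cells of a type and less RNA per cell cannot be told apart, and a listed peak also depends on the abundance of its transcript and on read depth, which is unknown here.

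The mitochondrial ribosome translates the few messages that mitochondrial DNA encodes, all of which are core subunits of the respiratory chain and ATP synthase. Its own proteins are encoded in the nucleus, translated by cytosolic ribosomes and imported, so their mRNAs are ordinary nuclear transcripts that can carry m6A. The mark is placed by a methyltransferase complex built around METTL3 and METTL14, lies mostly around stop codons and in 3′ ends of mRNAs, and is read by proteins of the YTH family that change the stability and translation of the message. Colon epithelium depends on mitochondrial respiration, since colonocytes burn butyrate.

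Several facts of the lists bear on every result. TNBS lists held 18752, 10971 and 19285 peaks and normal lists 16488, 16324 and 13992, so TNBS 2 was the shortest. Male mice should carry a Y chromosome, and the Y-linked genes had 17 listed peaks in TNBS 2 and 12 in each normal list, but 0 in TNBS 1 and 0 in TNBS 3. These 2 libraries therefore go against their label, and results are given below with and without them. The lowest false discovery rate of any peak was 12.5% by the authors' caller. Among peaks of the mitochondrial ribosomal protein genes, 68.0%, 100% and 100% stood at a rate of 100% in the TNBS lists and 16.7%, 9.84% and 34.5% in the normal lists, beside the shares of all peaks (66.6%, 100% and 99.99% in TNBS lists, 10.5%, 13.7% and 37.8% in normal lists). The part that list length and these rates play in the results was not tested. One protocol field of the labels mentions retinas, and Abca4 was the only 1 of 15 retina markers with a peak, in TNBS 2. Of 15 colon epithelium markers, 6, 4 and 8 had a peak in the TNBS lists and 5, 6 and 4 in the normal lists, with Cdx1, Cdx2, Krt20 and Vil1 in all 6. In any list 8 of the 15 had one, while Cdh1, Cdh17, Krt18, Krt19, Muc2, Slc26a3 and Car1 had none. Of 8 smooth muscle markers, 6, 5 and 6 had one in TNBS lists and 4, 4 and 6 in normal lists.

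Most of the family carried a listed m6A peak. The mouse gene table held 78 protein-coding genes with Mrpl or Mrps symbols, and 58 of them (74.4%) had a peak under such a symbol in at least 1 list. Peaks listed under another name were not counted, so 58 is a lower limit. Among all 21900 protein-coding genes of the gene table, 50.5% had a peak under any name, matched by gene identifier. Of 80 protein-coding genes of the cytosolic ribosome, chosen by their Rpl and Rps symbols with paralogues, 19 (23.8%) had one, and a further listed gene, Rps4y2, had no gene identifier in the files. Cytosolic ribosomal protein genes have many processed copies in the genome, so reads from them may have been split or lost, and no test of these shares was made. The 20 family members without a peak listed under an Mrpl or Mrps symbol were Mrpl1, Mrpl21, Mrpl24, Mrpl30, Mrpl33, Mrpl43, Mrpl47, Mrpl49, Mrpl50, Mrpl51, Mrpl53 and Mrpl58 of the large subunit and Mrps9, Mrps11, Mrps14, Mrps16, Mrps18b, Mrps22, Mrps33 and Mrps34 of the small. Mrpl58, also known as Ict1, is a peptidyl-tRNA hydrolase that rescues stalled ribosomes and is also built into the large subunit. Under the name Ict1 it did have a listed peak. For the others, a missing peak says only that none was listed under such a symbol at this depth.

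Colitis and normal colon had about the same number of mitochondrial ribosomal protein genes with a peak. The counts were 51, 36 and 49 of 58 in the TNBS libraries and 47, 45 and 45 in the normal libraries, so the normal counts lay between those of the TNBS libraries. The means were 45.3 ± 8.14 genes in TNBS libraries and 45.7 ± 1.15 in normal libraries (SD, n = 3 each), a difference of -0.33 genes that is smaller than the spread between samples. TNBS 2 had the fewest genes, and without it the difference was 4.33 genes. As a share of the 58 genes this was 87.9%, 62.1% and 84.5% in TNBS libraries and 81.0%, 77.6% and 77.6% in normal libraries. The same shares over all 11548 genes were 82.6%, 59.6% and 81.7% in TNBS libraries and 78.2%, 76.8% and 70.6% in normal libraries. In each of the 6 libraries the family stood slightly above all genes, and both sets were lowest in TNBS 2. Genes of both subunits were fewest in TNBS 2. Large subunit names had 32, 22 and 30 genes with a peak in TNBS libraries and 30, 26 and 27 in normal libraries, and small subunit names had 19, 14 and 19 in TNBS libraries and 17, 19 and 18 in normal libraries. Without TNBS 1 and TNBS 3, the libraries that list no Y-linked peak, TNBS 2 alone remains, and its difference from the normal mean was -9.67 genes.

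**Figure D1:**
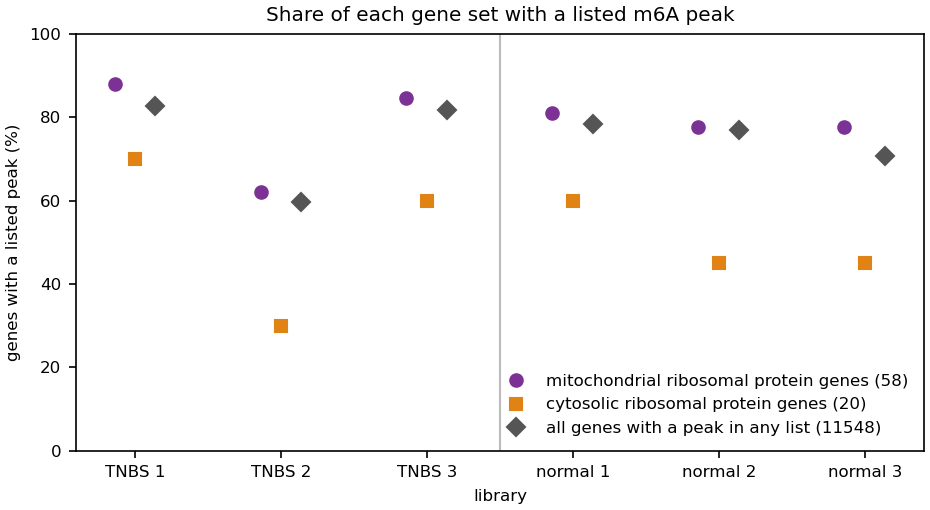
Share of genes with a listed m6A peak (y axis, %) in each library (x axis), for 58 mitochondrial ribosomal protein genes (circles), 20 cytosolic ribosomal protein genes (squares) and all 11548 genes with a peak in any list (diamonds), 1 point per library and gene set. The mitochondrial ribosomal protein genes run from 62.1% in TNBS 2 to 87.9% in TNBS 1 and lie just above all genes in each library, while the cytosolic set lies below, from 30% to 70%.

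No gene of the family separated the groups by presence of a peak. Of the 58 genes 0 were listed in all 3 TNBS and in no normal library, where 115 of all 11548 genes (0.996%) did, and 0 were listed in all 3 normal and in no TNBS library, where 120 of all genes (1.04%) did. Such a complete separation of 3 against 3 has an exact two-sided permutation p of 0.1, the smallest possible, so no single gene could pass a threshold of 0.05. Both background rates amount to under 1 gene among 58, so the counts of 0 do not set the family apart. Without TNBS 2, the counts were 2 genes (Mrpl10 and Mrpl28) for TNBS and 0 for normal colon, where 4.65% and 1.26% of all genes met the loosened rule. With TNBS 2 as the only TNBS library they were 2 (Mrpl48 and Mrps18c) and 11, where 4.42% and 15.3% of all genes met the rule, a setting that rests on 1 short list.

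A peak was listed in all 6 libraries for 31 of the 58 genes (53.4%), beside 48.1% of all genes. In the large subunit these were Mrpl3, Mrpl4, Mrpl9, Mrpl12, Mrpl14, Mrpl15, Mrpl17, Mrpl27, Mrpl37, Mrpl38, Mrpl39, Mrpl40, Mrpl41, Mrpl44, Mrpl45, Mrpl46, Mrpl54, Mrpl55 and Mrpl57. Mrpl3 lies near the site where peptide bonds form, Mrpl12 is the stalk protein that recruits translation factors and also binds the mitochondrial RNA polymerase, Mrpl44 resembles RNase III, and Mrpl45 sits by the exit tunnel at the inner membrane. Under small subunit names they were Mrps2, Mrps5, Mrps7, Mrps12, Mrps15, Mrps18a, Mrps24, Mrps26, Mrps27, Mrps30, Mrps35 and Mrps36. Mrps12 forms part of the decoding centre and Mrps27 is an RNA-binding pentatricopeptide repeat protein. Mrps18a and Mrps30 are built into the large subunit in spite of their names, and Mrps36 is now known as a component of the 2-oxoglutarate dehydrogenase complex. Mrpl27 and Mrps36 have pseudogenes in the gene table, as do Mrpl23 and Mrpl48, so the assignment of their peaks is uncertain.

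The strength of peaks differed widely among the 31 genes. Strength is given here as the percentile of a gene's strongest peak among all peaks of the same list, ranked by the authors' score, with ties sharing their mean rank. Mrpl41, a protein of the large subunit, had the highest mean percentile, 90.7, with 91.3, 85.8 and 93.0 in the TNBS lists and 90.3, 90.7 and 93.1 in the normal lists. The next were Mrps24 (mean percentile 89.5), Mrps26 (89.3), Mrpl12 (88.3), Mrpl57 (86.8) and Mrps27 (86.0). Ties limit this order, since 8.65% to 18.8% of the peaks of a list share the top of the scale at a score of 3100 or more. The fold enrichment over input, as the authors' files list it, was 33.2, 19.2 and 44.5 for Mrpl41 in the TNBS lists and 37.2, 33.2 and 27.7 in the normal lists. For Mrps24 it was 105.3, 36.2 and 63.9 in the TNBS lists and 29.3, 25.0 and 22.4 in the normal lists. These folds are the caller's values within each list and were not compared between samples. At the other end stood Mrps15 with a mean percentile of 20.3, Mrpl27 with 36.0 and Mrps18a with 38.0. The strongest Mrps15 peak ranked at percentile 27.9, 25.3 and 31.4 in the TNBS lists and 1.00, 16.9 and 19.3 in the normal lists, so it lay near the caller's limit in normal 1. Over all genes of the family with a peak, the median percentile was 64.0, 43.7 and 62.5 in TNBS lists and 58.0, 63.3 and 53.5 in normal lists, against 65.2, 58.8 and 65.8 in TNBS lists and 63.8, 63.8 and 61.5 in normal lists over all genes. The family thus stood below the median gene in each of the 6 lists, by the most in TNBS 2. The strongest of several peaks ranks higher the more peaks a gene has. At least 2 regions in 1 library were found in 37.9% of the family and 53.5% of all genes. The part that this plays was not tested.

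**Figure D2:**
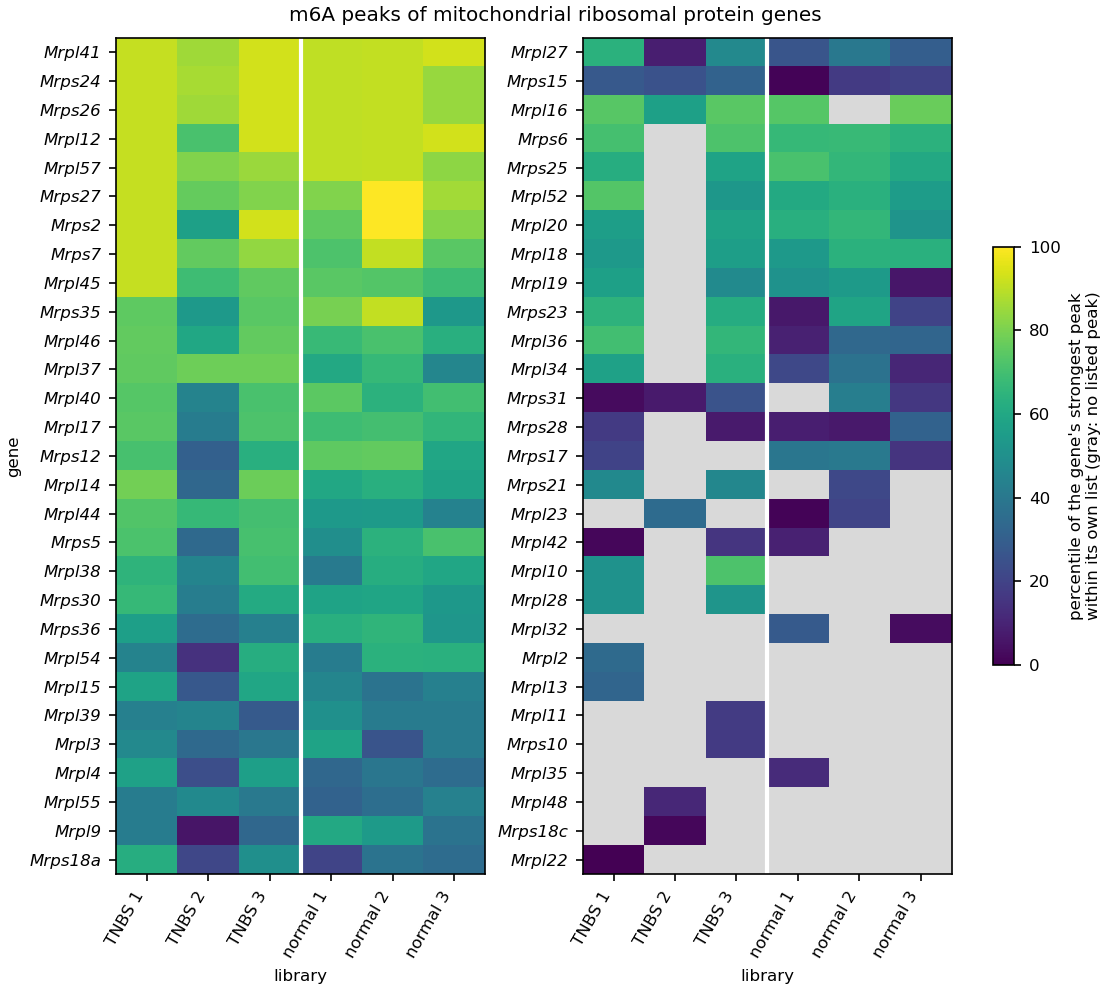
Percentile of each gene's strongest m6A peak within its own list (colour, 0 to 100; gray, no listed peak) for the 58 mitochondrial ribosomal protein genes (rows) in the 3 TNBS and 3 normal libraries (columns). Genes are ordered by the number of libraries with a peak, then by mean percentile; 31 genes are coloured in all 6 columns and 10 are gray in TNBS 2 alone.

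The commonest incomplete pattern was a peak in every library but TNBS 2. It was seen in 10 of the 58 genes (17.2%), beside 11.5% of all genes. A peak missing from TNBS 1 alone or from TNBS 3 alone was seen in 0 genes of the family. Among all genes these patterns were also rare, at 0.320% and 0.779%. The 10 were Mrpl18, Mrpl19, Mrpl20, Mrpl34, Mrpl36 and Mrpl52 of the large subunit and Mrps6, Mrps23, Mrps25 and Mrps28 of the small. Mrpl18 belongs to a protein family that binds ribosomal RNA, and Mrps6 lies on the platform of the small subunit. Several of these peaks were strong in the other lists. Mrps6 ranked at percentile 70.6 and 71.9 in TNBS 1 and TNBS 3 and at 67.0, 67.4 and 64.2 in the normal lists. Mrpl16 lacked a peak in normal 2 alone, although it ranked at 74.0, 56.9 and 74.5 in the TNBS lists and at 73.7 and 77.2 in normal 1 and normal 3. Mrps31 lacked a peak in normal 1 alone and ranked at 2.93, 7.31 and 25.7 in the TNBS lists and at 42.9 and 16.2 in normal 2 and normal 3.

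In 4 genes the number of libraries with a peak differed by at least 2 between groups. Of the 58 genes 2 (3.45%) had at least 2 more TNBS than normal libraries, where 6.74% of all genes did, and 2 (3.45%) had at least 2 more normal libraries, where 5.69% of all genes did. Both shares were below those of all genes. Mrpl10, the base of the stalk of the large subunit, had a peak over the last part of the gene (chr11:97048079-97049213, plus strand) in TNBS 1 and TNBS 3 alone. The strongest peak of the gene ranked at percentile 51.0 and 71.9 there, with a fold enrichment of 8.41 and 10.9. Mrpl28, another protein of the large subunit, had a peak at each end of the gene (chr17:26123503-26123849 and chr17:26126271-26126613, plus strand) in the same 2 libraries, at percentile 51.1 and 52.0 for the stronger one. Both genes were thus listed only in the 2 TNBS libraries that list no Y-linked peak, and this pattern was shared by 3.45% of the family and 3.65% of all genes. Mrpl32, which is matured by the m-AAA protease before it joins the ribosome, had a peak at its 3′ end (chr13:14610301-14610740, minus strand) in normal 1 and normal 3 alone. It ranked low, at percentile 28.4 and 3.17. Mrps17, a small subunit protein that contacts ribosomal RNA, had a peak in TNBS 1 and in all 3 normal libraries. It covered 785, 0 and 0 bases in the TNBS libraries and 679, 658 and 960 bases in the normal libraries, so TNBS 1 lay within the normal range.

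Genes seen in a single library were mostly weak and mostly in TNBS libraries. There were 8 such genes (13.8%, beside 12.1% of all genes), 7 of them (12.07% of the 58) in a TNBS library. All genes leaned the same way. Of them 1016 (8.80%) were listed in 1 TNBS library alone and 387 (3.35%) in 1 normal library alone. Mrpl2, Mrpl13 and Mrpl22 were listed in TNBS 1 alone, Mrpl48 and Mrps18c in TNBS 2 alone, Mrpl11 and Mrps10 in TNBS 3 alone, and Mrpl35 in normal 1 alone. Their percentiles ran from 0.165 for Mrpl22, near the lowest score of its list, to 34.8 for Mrpl2. Together with Mrpl10 and Mrpl28, 9 of the 58 genes (15.5%) had peaks in TNBS libraries only, beside 14.3% of all genes, and 2 (3.45%, Mrpl32 and Mrpl35) in normal libraries only, beside 6.07% of all genes. In the remaining patterns, Mrpl42 and Mrps21 had a peak in TNBS 1, TNBS 3 and 1 normal library, and Mrpl23 in TNBS 2 and 2 normal libraries. The 3 paralogues of Mrps18 differed, with Mrps18a in all 6 libraries, Mrps18c in TNBS 2 alone at percentile 1.70, and Mrps18b in none.

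When overlapping peaks of the 6 lists were merged wherever they shared at least 1 base, the family held 90 regions. Of these, 34 (37.8%) were called in all 6 libraries, beside 28.4% of the 26654 regions of all genes. None of the 90 regions (0) was shared by all 3 TNBS lists and missing from the normal lists, where 0.949% of all regions were, and 0 were shared by the 3 normal lists and missing from the TNBS lists, where 1.54% were. TNBS libraries held 75, 44 and 69 of the 90 regions and normal libraries 60, 61 and 58. Regions found in TNBS libraries only numbered 19 (21.1%, beside 26.4% of all regions), and regions found in normal libraries only numbered 5 (5.56%, beside 11% of all regions). Of the 19, 6 were in TNBS 1 and TNBS 3 alone (6.67% of the 90, beside 6.94% of all regions). Without TNBS 2 those 6 regions meet the rule for TNBS alone. Of the 34 regions called in all 6 libraries, 14 (41.2%) had the same first and last base in each list, beside 51.7% of all regions called in all 6. Mrpl12 (748 bases), Mrps27 (823 bases), Mrps12 (599 bases) and Mrpl14 (448 bases) were such genes, and for them the covered length could not differ between samples.

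A single region per gene was usual. Of the 58 genes 35 had 1 merged region, 17 had 2 and 6 had 3 or more, and 22 (37.9%) had at least 2 regions in the same library, beside 53.5% of all genes. The annotated span of the family was also shorter, with a median of 7.61 kb against 24.8 kb over all genes with a peak. Mrps5, a small subunit protein of the ribosomal S5 family, had the most, with 6, 2 and 5 peaks in the TNBS libraries and 4, 5 and 4 in the normal libraries. Its regions at chr2:127594444-127594569 and chr2:127603629-127604374, the second of which runs past the annotated gene end, were called in all 6 libraries. The regions at chr2:127595664-127596057 and chr2:127602385-127602521 were called in every library but TNBS 2. The most 5′ one, at chr2:127590699-127590781, was called in TNBS 1 alone. Mrps36 had 3, 1 and 3 peaks in the TNBS libraries and 2, 2 and 1 in the normal libraries, and Mrpl46 had 3, 1 and 3 in the TNBS libraries and 1, 2 and 2 in the normal libraries. Mrps18a, Mrps6 and Mrps7 each had up to 3. Mrpl15 and Mrpl44 had the same 2 regions in all 6 libraries. Mrpl38 and Mrpl55 had both of their 2 regions in 4 of 6 libraries. Mrpl18, Mrpl19 and Mrpl20 had 2 regions each but none in TNBS 2. For Mrpl3, Mrpl16, Mrpl37, Mrpl39, Mrpl45, Mrps15, Mrps23 and Mrps30 the second region was called in 1 or 2 libraries only.

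The number of bases under peaks separated the groups in 1 gene of the family, Mrps26. Lower coverage in every TNBS than in every normal library was found in 1 of 58 genes (1.72%), where 5.85% of all genes had it, and higher coverage in 0 of 58, where 2.77% of all genes had it, so the family had no more such genes than the background. Mrps26 encodes a protein of the small subunit, and its peaks covered 544, 523 and 548 bases in the TNBS libraries and 723, 671 and 886 bases in the normal libraries. The groups did not overlap, with means of 538 ± 13.4 bases in TNBS libraries and 760 ± 112 bases in normal libraries (SD, n = 3 each, exact two-sided permutation p = 0.1, the smallest possible). The difference was -221.7 bases. All 6 peaks began at the same base, 130564938 on chromosome 2 (plus strand), and the difference lay at the 3′ edge. The peaks ran 87, 66 and 91 bases past the annotated gene end in the TNBS libraries and 266, 214 and 429 bases past it in the normal libraries. No other gene of the table overlaps the region. The peak was among the strongest of each list, with percentiles of 91.3, 85.8 and 93.0 in the TNBS lists and 90.3, 90.7 and 84.6 in the normal lists. Leaving out TNBS 1 and TNBS 3 cannot undo this separation, so that setting adds nothing for Mrps26. With TNBS 2 as the only TNBS library, 41.2% of all genes met the rule for lower coverage.

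**Figure D3:**
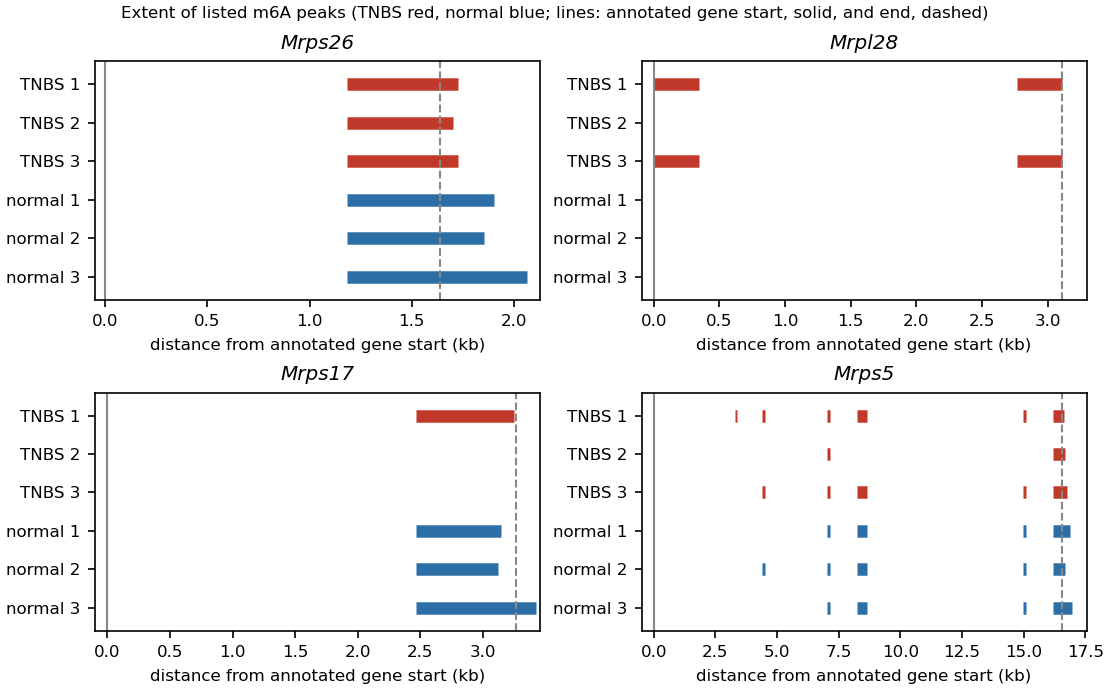
Extent of listed m6A peaks along 4 genes (x axis, distance from the annotated gene start in kb), 1 row per library with TNBS libraries (red) above normal libraries (blue); the solid line is the annotated gene start and the dashed line the annotated end. In Mrps26 the 6 peaks share their 5′ edge and the normal peaks run 214 to 429 bases past the gene end against 66 to 91 in TNBS libraries, Mrpl28 has peaks in TNBS 1 and TNBS 3 alone, Mrps17 lacks one in TNBS 2 and TNBS 3, and Mrps5 has 2 to 6 peaks per library.

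Other well-covered genes overlapped between groups. Mrpl57 covered 659, 488 and 814 bases in the TNBS libraries and 775, 957 and 849 bases in the normal libraries, with TNBS 3 above normal 1. Mrpl41 covered 736, 830 and 734 bases in the TNBS libraries and 617, 935 and 894 bases in the normal libraries, with normal 1 the lowest of the 6. Mrps24 covered 622, 480 and 467 bases in the TNBS libraries and 750, 620 and 489 bases in the normal libraries, with TNBS 1 above normal 2. Mrpl27 covered 481 bases in each of the 6 libraries. Mrps15 covered 275, 453 and 259 bases in the TNBS libraries and 467, 275 and 275 bases in the normal libraries, and Mrps18a covered 582, 550 and 582 bases in the TNBS libraries and 550, 176 and 582 in the normal libraries. These values leave no gap between the groups. Mrpl4, whose single region lies on chromosome 9 (chr9:21006827-21008831), varied widely, with 2005, 514 and 2005 bases in the TNBS libraries and 1695, 491 and 476 bases in the normal libraries, so long and short forms of the peak occurred in both groups.

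More regions of the family lay at the 3′ end of the gene than in any other part of it. With strand known for 50 genes and 79 regions, 32 regions (40.5%), in 32 genes, came within 10 bases of the annotated gene end or ran past it. The share was 16.1% of 20576 regions over all genes, whose spans are longer, and it was not tested. By library, 37.5%, 35.1% and 39.3% of the family's peaks did so in the TNBS lists and 51.0%, 43.1% and 44.9% in the normal lists. Over all genes these shares were 15.5%, 11.5% and 14.7% in the TNBS lists and 15.8%, 15.7% and 16.3% in the normal lists. The TNBS lists had the lower shares in both sets. Behind the shares of the family stand 24 of 64, 13 of 37 and 24 of 61 peaks in the TNBS lists and 26 of 51, 22 of 51 and 22 of 49 in the normal lists, so the counts of TNBS 1 and TNBS 3 lay within the range of the normal lists, of a larger number of peaks. Peaks of the family were also narrower than those of all genes in each list, with medians of 353, 453.5 and 406 bases in the TNBS lists and 485.5, 481 and 478.5 bases in the normal lists, against 518, 616 and 477 bases over all genes in TNBS lists and 623, 608.5 and 656 bases in normal lists.

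**Figure D4:**
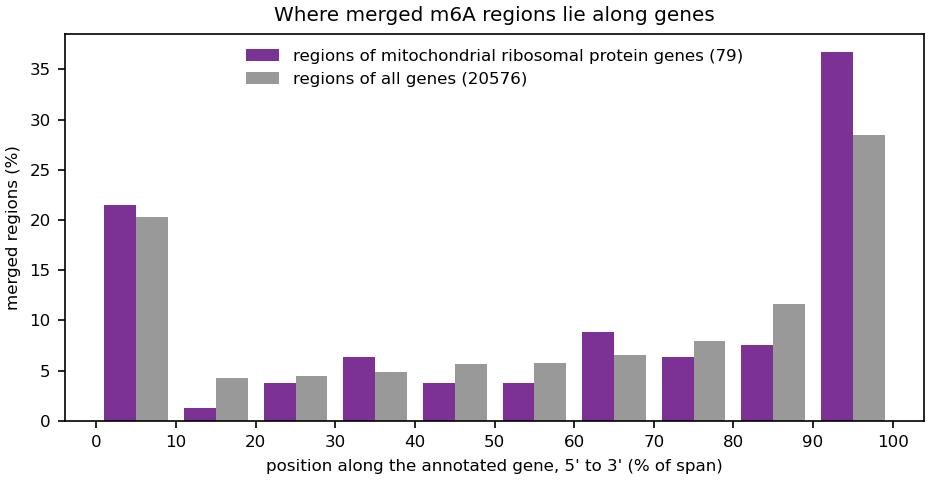
Share of merged m6A regions (y axis, %) by position along the annotated gene from 5′ to 3′ (x axis, 10 bins of the span), for 79 regions of mitochondrial ribosomal protein genes (purple) and 20576 regions of all genes (gray) with known strand. Both sets have their highest bars in the last bin (36.7% and 28.5%) and the first bin (21.5% and 20.3%).

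A smaller set of regions lay at the gene start. Of the 79 regions 13 (16.5%), in 13 genes, came within 10 bases of the annotated start or began before it, beside 10.2% of all regions. With the 6 lists pooled, 7 of these genes (Mrpl16, Mrpl28, Mrpl37, Mrpl46, Mrps6, Mrps7 and Mrps18a) had a region at each end. Some rest on 1 list: the end region of Mrpl37 was in normal 1 alone, and the start regions of Mrpl16 and Mrps7 were in TNBS 1 alone. The start and end regions of Mrps18a were in 6 and 5 libraries. In 4 genes a peak reached the promoter window (250 bases before to 50 after the start) in all 6 libraries. Their start sequences are shown because they mark where the listed peaks begin. Each run has 60 bases before and 30 after the annotated start, 5′ to 3′ on the transcribed strand, from RefSeq on GRCm38.p6, and capitals mark the bases inside a listed peak in all 6 libraries.
Mrpl37 (chr4:107066837-107066926, minus strand): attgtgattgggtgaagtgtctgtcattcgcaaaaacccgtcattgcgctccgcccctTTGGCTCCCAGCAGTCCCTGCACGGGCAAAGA
Mrps15 (chr4:126046868-126046957, plus strand): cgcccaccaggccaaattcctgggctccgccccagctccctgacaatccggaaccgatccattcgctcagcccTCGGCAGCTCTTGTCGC
Mrps18a (chr17:46110944-46111033, plus strand): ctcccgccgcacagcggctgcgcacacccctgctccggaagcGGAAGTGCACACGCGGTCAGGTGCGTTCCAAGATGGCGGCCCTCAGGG
Mrps36 (chr13:100744630-100744719, minus strand): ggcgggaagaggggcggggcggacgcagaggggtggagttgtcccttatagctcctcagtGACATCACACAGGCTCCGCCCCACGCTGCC

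In Mrps36 the peak began at the annotated start itself, in Mrpl37 it began 2 bases before it, and in Mrps18a 18 bases before it. In Mrps15 the first base shared by all 6 lists lay 13 bases after the start. The start peak of Mrpl37 (chr4:107066450-107066868) had a fold enrichment of 36.6, 25.3 and 39.1 in the TNBS lists and 20.1, 16.2 and 11.2 in the normal lists. It was the strongest peak of the gene in each list, at percentiles of 75.5, 77.9 and 77.8 in the TNBS lists and 60.2, 67.0 and 45.8 in the normal lists. The same region overlaps another annotated gene, Cyb5rl. The start peak of Mrps36 (chr13:100744530-100744659) had a fold enrichment of 15.9, 8.80 and 19.9 in the TNBS lists and 20.7, 24.6 and 18.4 in the normal lists. The 4 letters GGAC, a core form of the m6A consensus, were searched on the transcribed strand of the first 50 transcribed bases. They were in 14 of 50 genes of the family (28.0%) and in 24.3% of 8850 genes with a listed peak and a promoter entry. In the capitals of the 4 runs they do not occur. Across the whole 300-base window, CCGGAAG, a core of the site of ETS factors such as GABP, was found on either strand in 16 of 50 genes (32.0%) and in 17.7% of the 8850 genes. The window of Mrps18a holds 1 of them, in lower case just before the capitals. GABP is a known regulator of nuclear genes for mitochondria, and a match here is a description of letters only.

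Some regions of the family lie over other genes. In 6 genes a region overlapped another annotated gene: Gcfc2 at Mrpl19, Cyb5rl at Mrpl37, Wdfy1 at Mrpl44, Rsph9 at Mrps18a, Slc5a3 at Mrps6, and Gga3 and Mif4gd at Mrps7. The sources used here do not say that strand was used in counting, so reads from these neighbours cannot be told apart. In TNBS 3 and in normal 3 a peak in the 3′ region of Mrps7 carried the name Mif4gd. When peaks of any name within the span of a gene's own peaks were counted, 0 genes separated the groups by presence and Mrps26 was again the only gene separated by coverage.

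Genes that work with the mitochondrial ribosome gave few differences between groups. Among 6 mitochondrial ribosomal proteins with other names, 5 had a peak, Ict1 (Mrpl58) among them. Dap3, a GTP-binding protein of the small subunit, and Gadd45gip1, of the large subunit, had one in all 6 libraries. Aurkaip1, of the small subunit, had one in TNBS 2 alone, and Ptcd3, an RNA-binding protein of the small subunit, lacked one in TNBS 2 alone. None of the 6 separated the groups by presence (0) or coverage (0).

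Of 15 mitochondrial translation factors 12 had a peak, with 9, 7 and 11 in TNBS libraries and 9, 9 and 7 in normal libraries, and 0 separated the groups. Mtfmt, which formylates the initiator tRNA, the initiation factor Mtif3, the insertase Oxa1l and the RNA-binding protein Slirp had one in all 6. Tufm, the elongation factor that brings aminoacyl-tRNA to the ribosome, was listed in TNBS 1 and TNBS 3 alone, the 2 libraries without Y-linked peaks. Gfm1, the translocase, lacked one in TNBS 2 alone, Mtrf1l, a release factor, in TNBS 1 alone, and Gfm2, a recycling factor, had one in TNBS 3 alone.

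Of 27 assembly and ribosomal RNA factors 19 had a peak, with 17, 14 and 17 in TNBS libraries and 14, 15 and 16 in normal libraries. Coverage was lower in every TNBS library in 3 of the 27 (Ngrn, Tfb2m and Ybey) and higher in 0. Of all genes, 5.85% met the rule for lower and 2.77% the rule for higher coverage. The RNA helicase Dhx30 was listed in TNBS 2 and TNBS 3 alone, Fastkd2, which binds mitochondrial ribosomal RNA, in TNBS 1 and the 3 normal libraries, Fastkd5 in all but normal 3, and the assembly factor Malsu1 in TNBS 1 alone.

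Of 17 mitochondrial aminoacyl-tRNA synthetases 14 had a peak and 11 had one in all 6 libraries. Nars2, which charges asparagine tRNA, had a peak in 0 of 3 TNBS libraries and 3 of 3 normal libraries, the only gene of the list to separate the groups by presence. Yars2, for tyrosine, had one in TNBS 1 and TNBS 3 alone, and Sars2, for serine, in TNBS 3 alone. Of 11 genes of mitochondrial transcription and DNA maintenance, 9 had a peak. Esrra, the nuclear receptor ERR alpha that drives mitochondrial genes, had one in 3 of 3 TNBS libraries and 0 of 3 normal libraries. Coverage was lower in every TNBS library for Gabpa and Nrf1, which encode the ETS-family subunit of GABP and the transcription factor NRF1. This rule for lower coverage was met by 5.85% of all genes. Gabpa lacked a peak in TNBS 2. These calls follow the rules that 0.996% to 5.85% of all genes meet, each with an exact permutation p of 0.1, the smallest possible.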

How the data were processed

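One list of m6A peaks per sample was deposited, with positions, gene names and gene identifiers. Per the file headers, a peak carries a score derived from the log10 of the calling p-value (50 at the lowest, a p of 1e-05), a fold enrichment, which is a ratio to input, and its false discovery rate as a percent. Per the submitters' processing notes CASAVA 1.8 and BWA were used, with hg19, a human build, named. Between 99.1% and 99.5% of peaks lay on the mouse gene of their own identifier in GRCm38, so positions are read as GRCm38, counted from 1. The caller's version and the depth are not given in the sources used here.

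Presence of a peak, bases covered per gene and merged regions were counted (pandas), and groups were compared by complete separation of 3 against 3 libraries. Scores and folds were used within 1 list only. No label states that the samples of a group came from separate animals, so p-values measure the spread between these samples, which may be technical.

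The members and gene lists were chosen with earlier results of these data known. Genes with values in the text were those called by a rule, those differing by at least 2 libraries, the 6 strongest and 3 weakest of those in all 6 libraries, those with several regions in 1 library, and up to 4 of each other list. A few more, such as Mrpl4, Mrpl16 and Mrps31, were chosen after their values were seen. The counting was tested on simulated data. Alternatives set a stricter p (1e-10) or fold (4), equal list lengths, left out libraries, paired samples, assigned genes by position, or asked for 50% overlap.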

Additional observations from a re-analysis of the deposited data

How the results depend on the processing

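Of 96 values under alternatives, 67 kept within the limits set for a change (1.5 times for a count, 5.82 genes for the mean difference). Some of the 67 could not have changed, such as presence of a peak under the replicate block. A p limit of 1e-10, a minimum fold of 4, an overlap of 50% or gene assignment by position changed none of these results past those limits. Taking 10971 peaks from each list gave 1 gene with higher coverage (Mrpl4), 2 with lower coverage (Mrpl18 and Mrps26), where 2.81% and 6.52% of all genes met these rules, and 1 region found in the 3 normal lists alone. Leaving out 1 library, which loosens the rule, gave 0 to 2 genes present in TNBS libraries only and 0 to 1 in normal libraries only. It gave 0 to 6 genes with higher coverage and 1 to 5 with lower coverage. Mrps26 was among the latter each time, as it had to be, since leaving out a library cannot undo a complete separation. Regions in TNBS only numbered 0 to 6 and in normal only 0 to 1. The mean difference was -3.17 to 4.33 genes, and 31 to 41 genes were in all remaining libraries. The highest TNBS counts came without TNBS 2, with Mrpl10 and Mrpl28 by presence and with Mrpl4, Mrpl46, Mrps30 and Mrps36 added by coverage, and at that setting 4.65% and 17.8% of all genes met the rules. Without TNBS 1 and TNBS 3, which leaves TNBS 2 as a lone library with no spread, 2 genes were present in TNBS only, 11 in normal only, 3 had higher and 18 lower coverage (4.42%, 15.3%, 8.47% and 41.2% of all genes), 3 regions were in TNBS only and 15 in normal only, and the mean difference was -9.67 genes. With the replicate block, which pairs libraries of equal number, 2 genes had higher coverage in all 3 pairs (Mrpl4 and Mrpl16) and 4 lower (Mrpl57, Mrps5, Mrps24 and Mrps26). Of all genes 4.72% and 9.70% did so. The other results could not change under this block, since pairing leaves the rules for presence, the mean difference and the count in all 6 libraries the same. The numbers do not mark a known shared source, the correlations of deviations between libraries of equal number were 0.0285, -0.0557 and -0.0369, and not every library correlated best with its own number. The number of mice and the unknown depth limit each comparison.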
